A study of Mus musculus with 4 samples.

Results

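A set of 30 genes linked to autism was followed in RNA sequencing counts of mouse cortical astrocytes that were Npas3-/- or wild type. The 30 were taken by name from a fixed list, all 30 were found among the 53379 genes of the count table, and all 30 passed the filter on low counts that left 18838 genes for testing. They were read as 15 regulators of chromatin or transcription (Chd8, Chd2, Arid1b, Ash1l, Kmt2a, Kmt2c, Kmt5b, Pogz, Adnp, Setd5, Med13l, Ankrd11, Foxp1, Auts2 and Tcf4) and 15 synaptic, channel or signalling genes (Dyrk1a, Cul3, Tsc1, Tsc2, Nf1, Reln, Shank2, Shank3, Scn2a, Cacna1c, Nrxn2, Nlgn1, Nlgn2, Nlgn3 and Cntnap2).

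Human genes linked to autism fall mainly into these groups. The first holds enzymes that move nucleosomes or methylate histones, and factors that bind DNA or Mediator, the bridge between transcription factors and RNA polymerase. The second holds adhesion proteins, scaffolds and channels of synapses, and brakes on growth signals such as the TSC complex, which restrains mTOR, and neurofibromin, which restrains Ras. Astrocytes express many of them, neuroligins included, through which astrocytes touch neuronal neurexins. NPAS3 belongs to the bHLH-PAS family of transcription factors and acts in the brain.

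The groups were 2 libraries labelled Npas3-/- and 2 labelled wild type, all from C57BL/6 cortex taken at postnatal day 0 and grown in serum-containing medium to day 14 in vitro, after daily shaking to remove neurons and other cells. The labels give no sex, no number of animals and no design of the Npas3 allele, and the p-values below rest on the spread between libraries, part of which could be technical. Libraries held 82965565 to 86932708 counts. Npas3 itself had 2055 and 1386 counts in Npas3-/- replicates 1 and 2, against 5129 and 8739 in wild-type replicates 1 and 2. Its transcript was thus still counted in the Npas3-/- libraries. In the test described below Npas3 fell, with a log2 fold change of -1.82 (SE 0.33). With the GC and length correction it stood at -0.71 (SE 0.23) and did not pass. All 10 astrocyte markers examined were tested, with summed levels of 6922 and 7126 CPM (counts scaled to a common library total) in Npas3-/- and 3899 and 4944 CPM in wild type. S100b was near the lower end of detection, with 12 and 61 counts in Npas3-/- and 36 and 66 in wild type. Of the 10, Gfap, Glul and Aldoc, which make up most of the Npas3-/- sum, rose and Aqp4, Gja1 and Slc1a2 fell. Aqp4, the water channel gene of astrocytes, had 22.1 and 16.5 CPM in Npas3-/- and 139 and 482 CPM in wild type. With the GC and length correction described below, the calls of all but Slc1a2 held. In bulk RNA, fewer cells of a type and less RNA per cell cannot be told apart. Levels below are in CPM, using TMM-scaled library sizes, and log2 fold changes are Npas3-/- over wild type.

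Of the 30 autism-linked genes, 17 fell and 0 rose in Npas3-/- astrocytes at an adjusted p below 0.05 (edgeR's quasi-likelihood test, Benjamini-Hochberg adjustment over all tested genes). Over all tested genes 21.5% fell and 11.6% rose. The 17 comprised 11 of the 15 chromatin or transcription regulators and 6 of the 15 synaptic, channel or signalling genes. The median log2 fold change was -1.64 in the regulators and -0.61 in the synaptic, channel or signalling genes, against -0.07 over all tested genes. Whether the 2 classes differ was not tested. At an unadjusted p below 0.05, 21 of the 30 were lower and 1 higher, as were 27.6% and 20.3% of all tested genes. DESeq2 called 20 lower and 0 higher (25.7% and 18.7% of all tested genes), and limma-voom 17 lower and 0 higher (19.8% and 12.3%). Without Npas3-/- replicate 2, edgeR called 0 of the 30 and 0 of all genes, with 17 of the 30 lower at an unadjusted p below 0.05 (20.9% of all tested genes). It called 15 lower without Npas3-/- replicate 1 (9.38% of all tested genes), 17 without wild-type replicate 1 (19.0%) and 14 without wild-type replicate 2 (12.8%). Besides the loss of all 17 without Npas3-/- replicate 2, Arid1b lost its call without any of the other libraries, Scn2a without Npas3-/- replicate 1 or wild-type replicate 2, Foxp1 without Npas3-/- replicate 1, and Med13l without wild-type replicate 2.

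**Figure D1:**
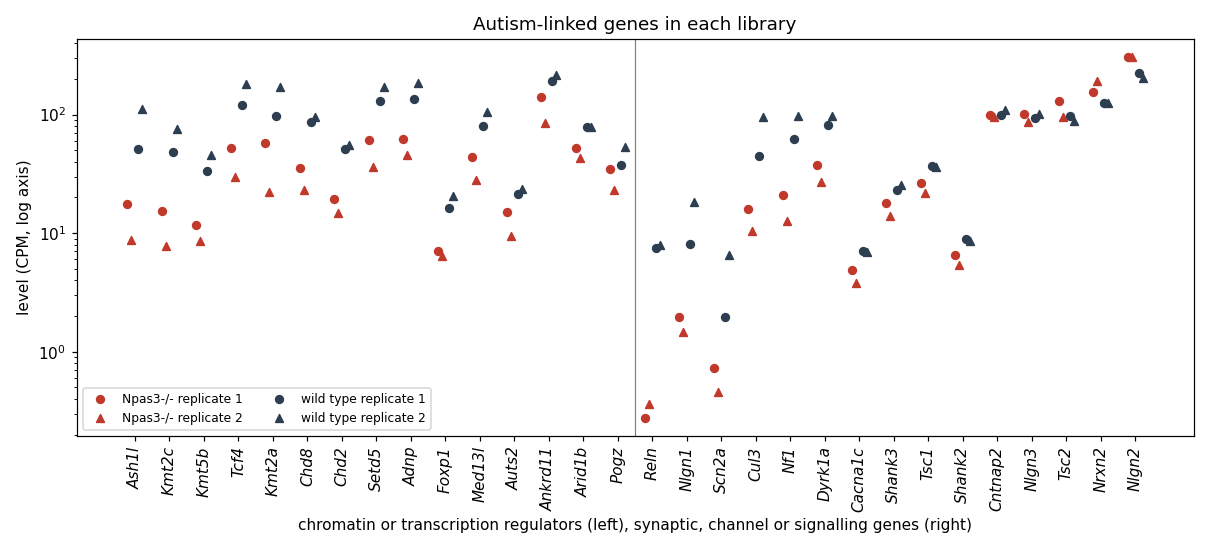
Level of each of the 30 genes (CPM, log axis) in the 4 libraries, with Npas3-/- in red left of wild type in dark blue, circles for replicate 1 and triangles for replicate 2, ordered by log2 fold change within each class. In all 15 chromatin or transcription regulators both Npas3-/- libraries lie below both wild-type libraries.

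Both Npas3-/- libraries lay below both wild-type libraries for 25 of the 30 genes, above them for 2 (Nrxn2 and Nlgn2), and overlapped for 3 (Tsc2, Nlgn3 and Cntnap2). Over all tested genes the shares were 40.1% below and 35.7% above. All 30 genes have long transcripts, from 4709 bases (Cul3) to 16470 bases (Kmt2a), in the longest protein-coding model of GENCODE M21. Among the 3770 tested genes with transcripts of at least 4709 bases, 43.9% fell and 2.71% rose, with a median log2 fold change of -1.18. Both Npas3-/- libraries lay below both wild-type libraries for 67.3% of them and above for 13.0%. Their median length was 6263.5 bases, against 8525 in the members, so they were not matched to the members for length.

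Among the chromatin remodellers, Chd8 and Chd2 encode chromodomain helicases that slide nucleosomes, and Arid1b encodes a DNA-binding subunit of the BAF (SWI/SNF) complex. Chd8 (chromosome 14, 52198151 to 52257780, minus strand, mm10) stood at 35.2 and 22.9 CPM in Npas3-/- replicates 1 and 2, against 86.5 and 95.4 CPM in wild-type replicates 1 and 2. Chd2 had 19.4 and 14.8 CPM in Npas3-/- and 51.5 and 55.1 CPM in wild type. The wild-type libraries were close to each other for both genes, and both genes fell to about the same degree, with log2 fold changes of -1.65 (SE 0.27, adjusted p = 0.0163) and -1.64 (SE 0.24, adjusted p = 0.0140). Arid1b also fell, with 52.2 and 43.0 CPM in Npas3-/- and 79.0 and 78.6 CPM in wild type (log2 fold change -0.73, SE 0.20, adjusted p = 0.0443).

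Of the histone methyltransferase genes, Ash1l, whose product methylates histone H3 at lysine 36, fell furthest, with 17.4 and 8.69 CPM in Npas3-/- and 51.2 and 112 CPM in wild type (log2 fold change -2.64, SE 0.52, adjusted p = 0.0217). Its replicates differed by about as much in each genotype, with log2 ratios of 1.00 (Npas3-/- replicate 1 over 2) and 1.13 (wild-type replicate 2 over 1). Kmt2c, an H3 lysine 4 methyltransferase of enhancers, had 15.4 and 7.82 CPM in Npas3-/- and 47.8 and 75.9 CPM in wild type (log2 fold change -2.41, SE 0.43, adjusted p = 0.0180). Its relative Kmt2a, known from leukaemia translocations, did not pass: it had 57.3 and 22.1 CPM in Npas3-/- and 98.1 and 171 CPM in wild type (log2 fold change -1.76, SE 0.52, adjusted p = 0.0504). Kmt5b, which methylates histone H4 at lysine 20, had 11.6 and 8.62 CPM in Npas3-/- and 33.4 and 45.7 CPM in wild type (log2 fold change -1.97, adjusted p = 0.0145). Setd5, a SET-domain gene, fell to 48.3 ± 17.4 CPM in Npas3-/-, against 150.4 ± 28.3 CPM in wild type (SD, n = 2 each; log2 fold change -1.64, adjusted p = 0.0210).

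The other regulators bind DNA, chromatin or Mediator. Tcf4, a bHLH factor that binds E-boxes, had 52.4 and 29.7 CPM in Npas3-/- and 121 and 179 CPM in wild type (log2 fold change -1.87, SE 0.36, adjusted p = 0.0207). Foxp1, a forkhead factor, fell to 6.70 ± 0.494 CPM in Npas3-/-, against 18.4 ± 3.13 CPM in wild type (log2 fold change -1.46). Med13l, a subunit of the kinase module of Mediator, fell to 35.7 ± 11.1 CPM in Npas3-/-, against 92.7 ± 17.9 CPM in wild type (log2 fold change -1.38, adjusted p = 0.0257). Adnp, a homeodomain and zinc finger gene, had 61.6 and 45.7 CPM in Npas3-/- and 135 and 186 CPM in wild type (log2 fold change -1.58, adjusted p = 0.0167). The remaining 3 regulators in this group did not pass: Ankrd11, which encodes an ankyrin-repeat protein, at -0.85 (adjusted p = 0.0720), Auts2 at -0.88 (adjusted p = 0.0840) and Pogz at -0.65 (adjusted p = 0.156). Pogz came closest to an overlap, with 34.6 CPM in Npas3-/- replicate 1 and 37.2 CPM in wild-type replicate 1.

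Adnp is a gene whose count is uncertain. In the annotation 82.1% of its merged exon length, 4393 bases, lies within exons of Gm20716, a model on the same strand. Gm20716, singled out for this overlap after its values were seen, had 0 and 0 counts in Npas3-/- replicates 1 and 2, against 1788 and 2040 in wild-type replicates 1 and 2 (a count of 0 allows up to 3). How reads shared by the pair were assigned is not given in the sources used here. Nlgn3 likewise shares 41.2% of its exon length with Gm21986, and Chd2 shares 19.3% with 2 other genes. For the other members the shared part was at most 9.16% (Nlgn1), and for 14 of the 30 it was 0.

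Among the signalling genes, 1 brake on Ras fell and the brakes on mTOR did not pass. Nf1, the neurofibromin gene, fell, with 21.1 and 12.6 CPM in Npas3-/- and 62.3 and 96.8 CPM in wild type (log2 fold change -2.24, SE 0.37, adjusted p = 0.0161). The TSC subunits did not pass: Tsc1 had 26.4 and 21.6 CPM in Npas3-/- and 36.6 and 36.4 CPM in wild type (log2 fold change -0.60, adjusted p = 0.0912). Tsc2 had 130.3 and 95.5 CPM in Npas3-/- and 96.8 and 87.6 CPM in wild type, so that the genotypes overlapped (log2 fold change 0.29, adjusted p = 0.352). Cul3, the scaffold of a ubiquitin ligase, fell, with 16.0 and 10.4 CPM in Npas3-/- and 44.8 and 95.9 CPM in wild type (log2 fold change -2.41, SE 0.45, adjusted p = 0.0193). The wild-type replicates of Cul3 differed 1.10 on the log2 scale. Dyrk1a, a dosage-sensitive kinase gene of the Down syndrome region, fell to 32.2 ± 7.74 CPM in Npas3-/-, against 89.5 ± 12.1 CPM in wild type (log2 fold change -1.47, adjusted p = 0.0174).

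Of the synaptic and channel genes, 3 of 10 fell. Reln, which encodes a secreted glycoprotein that guides migrating neurons, changed most of the 30: it had 23 and 28 counts in Npas3-/- replicates 1 and 2, against 664 and 747 in wild type (log2 fold change -4.59, SE 0.41, adjusted p = 0.0130). It was the only one of the 3 whose replicates were close in both genotypes. Scn2a, a neuronal voltage-gated sodium channel gene, was near the lower end of detection, with 60 and 35 counts in Npas3-/- and 174 and 608 in wild type (log2 fold change -2.84, SE 0.71, adjusted p = 0.0355). The calcium channel gene Cacna1c had 4.89 and 3.82 CPM in Npas3-/- and 7.10 and 6.90 CPM in wild type and did not pass (log2 fold change -0.68, adjusted p = 0.155). The scaffold genes of the postsynaptic density did not pass either, with Shank3 at 15.8 ± 2.76 CPM in Npas3-/- and 24.1 ± 1.59 CPM in wild type, and Shank2 at 5.98 ± 0.868 CPM in Npas3-/- and 8.77 ± 0.327 CPM in wild type.

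The 3 neuroligins, postsynaptic partners of neurexins that astrocytes also make, had different values. Nlgn1 fell, with 1.97 and 1.47 CPM in Npas3-/- and 8.12 and 18.2 CPM in wild type (log2 fold change -2.94, SE 0.51, adjusted p = 0.0172). Nlgn3 overlapped between genotypes, with 102 and 86.2 CPM in Npas3-/- and 93.1 and 100.1 CPM in wild type (log2 fold change -0.04, SE 0.19). Nlgn2 had 306 and 305 CPM in Npas3-/- and 224 and 202 CPM in wild type (log2 fold change 0.52, SE 0.19, adjusted p = 0.0841), a difference in both libraries that did not pass. Nrxn2, a neurexin gene, likewise lay higher in both Npas3-/- libraries, at 173 ± 24.5 CPM against 124 ± 0.165 CPM in wild type, without passing (log2 fold change 0.48, adjusted p = 0.117). Cntnap2, a neurexin-like adhesion gene, was level, with 99.4 and 94.8 CPM in Npas3-/- and 98.2 and 109 CPM in wild type.

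Levels between genes were compared per kilobase of transcript. The highest in Npas3-/- were Nlgn2 (54.9 CPM per kilobase), Nrxn2 (25.9) and Tsc2 (18.0). The highest in wild type were Nlgn2 (38.3 CPM per kilobase), Adnp (32.6) and Ankrd11 (24.2). The lowest in Npas3-/- were Reln (0.0274), Scn2a (0.0660) and Nlgn1 (0.145), and the lowest in wild type were Scn2a (0.473), Cacna1c (0.532) and Reln (0.661).

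The neuroligins also differ in base composition, with a transcript GC content of 38.9% for Nlgn1, 49.3% for Nlgn3 and 60.7% for Nlgn2. Across all tested genes the log2 fold change followed GC content (Spearman's rho 0.67 over 18817 genes, which are not independent replicates), and over the 30 members rho was also 0.67. Coding stretches of 120 bases show these differences. Each lies within 1 exon and was taken where its GC content came nearest to that of the whole transcript. Chd8 and Cntnap2 are added because their values with a GC and length correction are given below. G and C are in capitals, and all are 5′ to 3′ on the gene's strand (GENCODE M21, mm10).
Nlgn1, chr3:26133532-26133651, minus strand, exon 3: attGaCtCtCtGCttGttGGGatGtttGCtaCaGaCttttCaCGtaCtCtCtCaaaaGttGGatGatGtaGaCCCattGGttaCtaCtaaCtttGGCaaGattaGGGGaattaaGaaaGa
Nlgn3, chrX:101308757-101308876, plus strand, exon 5: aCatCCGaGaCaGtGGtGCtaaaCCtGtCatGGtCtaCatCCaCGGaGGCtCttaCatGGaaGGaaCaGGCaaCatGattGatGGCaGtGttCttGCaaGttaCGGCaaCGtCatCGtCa
Nlgn2, chr11:69827760-69827879, minus strand, exon 6: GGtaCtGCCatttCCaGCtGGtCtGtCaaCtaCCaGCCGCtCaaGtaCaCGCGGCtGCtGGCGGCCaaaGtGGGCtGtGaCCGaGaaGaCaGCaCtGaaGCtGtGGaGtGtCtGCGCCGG
Cntnap2, chr6:46988656-46988775, plus strand, exon 16: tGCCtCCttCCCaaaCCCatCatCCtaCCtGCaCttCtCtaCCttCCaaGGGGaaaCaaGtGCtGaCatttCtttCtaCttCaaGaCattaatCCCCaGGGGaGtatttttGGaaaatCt
Chd8, chr14:52237412-52237531, minus strand, exon 2: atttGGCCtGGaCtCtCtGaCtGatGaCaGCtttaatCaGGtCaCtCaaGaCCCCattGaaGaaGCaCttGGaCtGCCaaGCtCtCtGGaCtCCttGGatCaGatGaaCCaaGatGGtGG
Of the 120 bases, 47 are G or C in Nlgn1, 59 in Nlgn3, 73 in Nlgn2, 53 in Cntnap2 and 59 in Chd8.

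The members were placed beside all tested genes with transcripts at least as long as the shortest of them. Below 42% GC, all 3 members (Tcf4, Cul3 and Nlgn1) fell, as did 63.7% of 586 genes. Between 42% and 46%, 4 of 5 members fell, Cntnap2 being the other one, as did 72.4% of 863 genes. Between 46% and 50%, 7 of 9 fell, Pogz and Nlgn3 being the others, as did 55.1% of 910 genes. Between 50% and 54%, 3 of 6 fell (Arid1b, Med13l and Reln), as did 19.1% of 744 genes. In that range the members' median log2 fold change was -1.05, against -0.33 for all 744. From 54% to 58%, 0 of 4 members fell (Ankrd11, Auts2, Tsc2 and Shank2), and 2.38% of 463 genes did. Above 58%, 0 of 3 fell (Shank3, Nrxn2 and Nlgn2), and 1.47% of 204 genes did. From low to high GC content, the members' medians in the ranges other than 50% to 54% were -2.41, -2.24, -1.64, -0.70 and 0.48. Those of all genes in the same ranges were -2.65, -2.20, -1.32, 0.17 and 0.36. The median GC content was 49.4% in the chromatin or transcription regulators and 50.3% in the synaptic, channel or signalling genes. The synaptic, channel or signalling genes ranged from 38.5% (Cul3) to 62.4% (Nrxn2), against 40.9% (Tcf4) to 55.0% (Ankrd11) in the regulators.

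**Figure D2:**
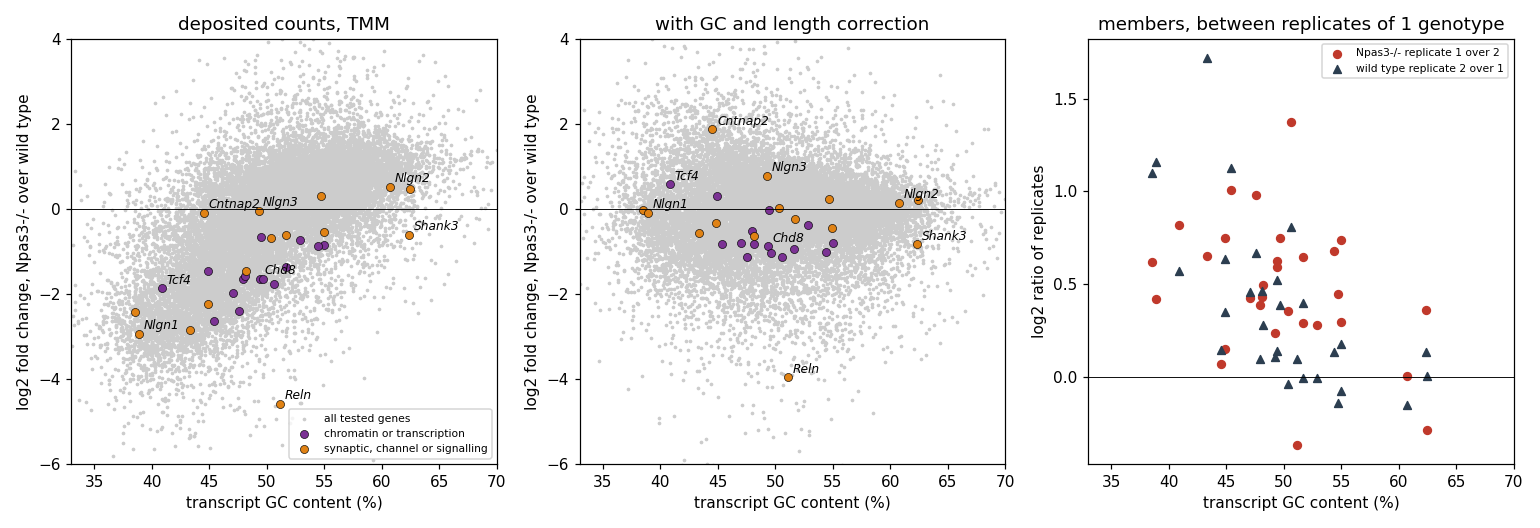
Left and middle, log2 fold change of Npas3-/- over wild type against transcript GC content (%), before and after the GC and length correction, for all tested genes (grey; points beyond the axes are not drawn) and the 30 members (purple, chromatin or transcription; orange, synaptic, channel or signalling). Right, log2 ratio between the replicates of 1 genotype for the 30 members, Npas3-/- in red and wild type in dark blue. Members of low GC content lie low in the left panel, and in the middle panel Cntnap2 (1.87) and Reln (-3.96) stand farthest from 0.

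Replicates of 1 genotype also differed in these genes. Of the 30 genes, 28 were higher in Npas3-/- replicate 1 than in replicate 2, with a median log2 ratio of 0.44, and 24 were higher in wild-type replicate 2 than in replicate 1, with a median of 0.23. Over all tested genes the medians of both ratios were 0.00. Over the genes with transcripts at least as long as the shortest member they were 0.34 between the Npas3-/- libraries and 0.22 between the wild-type libraries. In these, 78.3% and 65.6% of genes went in the same direction as the members. All 15 chromatin or transcription regulators were higher in Npas3-/- replicate 1 than 2, and 14 of the 15 in wild-type replicate 2 than 1. The spread was largest for Kmt2a between the Npas3-/- libraries (log2 ratio 1.38) and for Scn2a between the wild-type libraries (1.72).

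When GC content and length of transcripts were adjusted for in each library, 5 of the 30 genes fell and 2 rose, where 4.39% of all tested genes fell and 4.35% rose (edgeR's quasi-likelihood test with the fitted trend as an offset). Among genes with transcripts at least as long as the shortest member, 7.88% fell and 5.15% rose. All 5 had also fallen without it: the regulators Kmt2c (log2 fold change -1.12, SE 0.21, adjusted p = 0.0375), Setd5 (-1.03, SE 0.19, adjusted p = 0.0369), Med13l (-0.95, SE 0.17, adjusted p = 0.0336) and Chd8 (-0.88, SE 0.15, adjusted p = 0.0321), and Reln (-3.96, SE 0.45, adjusted p = 0.0239). The median log2 fold change was -0.83 in the 15 chromatin or transcription regulators and -0.09 in the 15 synaptic, channel or signalling genes, against -0.05 over all tested genes. Corrected levels in both Npas3-/- libraries lay below both wild-type libraries for 18 of the 30 genes, 12 of them regulators, and above them for 6. Over all tested genes the shares were 33.1% below and 28.6% above. Over those with transcripts at least as long as the shortest member 39.1% were below. A real change that ran along GC content or length would be taken out as well.

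The values of several members were near 0 after the correction. Nlgn1 stood at -0.09 (SE 0.28), Cul3 at -0.02 (SE 0.17), Pogz at -0.03 (SE 0.21) and Cacna1c at 0.029 (SE 0.30). Nf1 stood at -0.32 (SE 0.16, adjusted p = 0.231), with both Npas3-/- libraries still below both wild-type libraries. Tcf4 and Foxp1 changed sign, at 0.57 (SE 0.22, adjusted p = 0.145) and 0.30 (SE 0.23, adjusted p = 0.453), and did not pass. Other members had corrected values of about the size of the regulators that fell and missed the threshold: Kmt2a at -1.14 (adjusted p = 0.0664), Auts2 at -1.01 (adjusted p = 0.0682), Adnp at -0.83 (adjusted p = 0.0552), Shank3 at -0.83 (adjusted p = 0.0718), Ash1l at -0.83 (adjusted p = 0.107), Kmt5b at -0.81 (adjusted p = 0.0625) and Ankrd11 at -0.80 (adjusted p = 0.0626).

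The 2 genes that rose with the correction, Cntnap2 and Nlgn3, were the members nearest to no difference without it. Corrected levels of Cntnap2 were 159.6 and 228 CPM in Npas3-/- replicates 1 and 2, against 61.0 and 45.2 CPM in wild-type replicates 1 and 2 (log2 fold change 1.87, SE 0.25, adjusted p = 0.0247). Those of Nlgn3 were 115 and 135 CPM in Npas3-/-, against 74.7 and 70.6 CPM in wild type (log2 fold change 0.78, SE 0.16, adjusted p = 0.0429). These rises are relative to other transcripts of like composition and length. In the deposited counts neither gene differed by more than the spread between replicates.

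**Figure D3:**
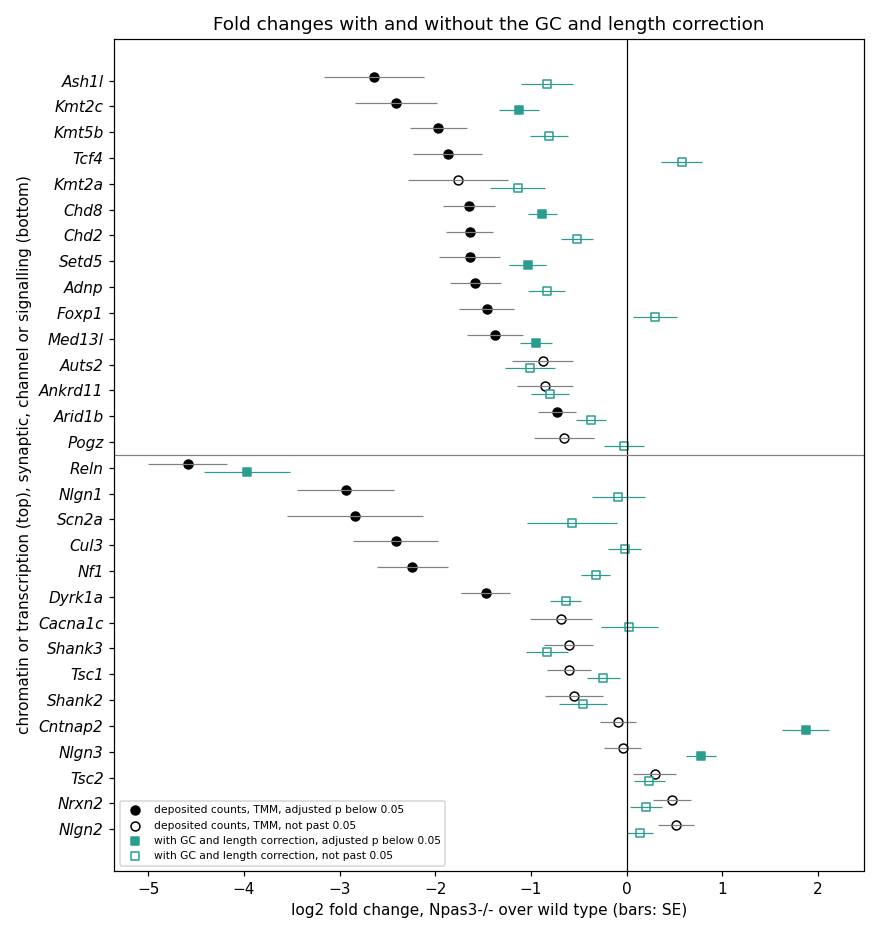
Log2 fold change of Npas3-/- over wild type with SE for each of the 30 genes, from the deposited counts (black circles) and with the GC and length correction (green squares), filled where the adjusted p is below 0.05. Chromatin or transcription regulators above the line keep a median of -0.83 with the correction, and Cntnap2 and Nlgn3 move to the right of 0.

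With length alone corrected 12 members fell and 5 rose (19.2% and 11.7% of all tested genes): besides Cntnap2 and Nlgn3 these were Nlgn2 (1.19, adjusted p = 0.0185), Nrxn2 (1.34, adjusted p = 0.0223) and Tsc2 (1.05, adjusted p = 0.0204). With GC content alone 12 fell and 1 rose (5.68% and 4.95%), Cntnap2. The corrected calls depended on the transcript model and on single libraries. The calls of Chd8 and Nlgn3 held in none of the corrected fits with 1 library left out. In such fits no gene of the whole table was called without Npas3-/- replicate 1 or 2. Over the corrected fits with each library left out in turn, Chd8 ranged from -0.97 to -0.80, and Nlgn3 from 0.66 to 0.88. With GC content and length taken over all exons of a gene merged, 7 genes fell (6.30% of all tested genes): Kmt2c, Med13l and Reln again, with Adnp, Ankrd11, Arid1b and Shank3. Chd8 stood at -0.34 (adjusted p = 0.215) and Setd5 at 0.53 (adjusted p = 0.170) there. The merged GC content of Setd5 is 41.4%, against 49.7% in its longest coding transcript. Cntnap2 rose there too (log2 fold change 1.33, adjusted p = 0.0233), as did 6.19% of all tested genes, and Nlgn3 did not pass (0.24, adjusted p = 0.335). Over the corrected fits with each library left out, Kmt2c ranged from -1.30 to -0.94, Setd5 from -1.23 to -0.86 and Med13l from -1.07 to -0.82. Reln ranged from -4.47 to -3.55 and Cntnap2 from 1.55 to 2.08. Without Npas3-/- replicate 1 or 2, edgeR called no gene of the whole table, so the members' calls could not be judged there. Without wild-type replicate 1 it called 6 lower and 1 higher (3.78% and 4.59% of all tested genes), and without wild-type replicate 2 it called 1 lower and 1 higher (1.48% and 1.55%), Reln and Cntnap2.

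Partners and relatives of the 30 were taken from 11 lists with 179 genes in all, of which 175 were tested. Of these 73 fell and 12 rose, 41.7% and 6.86%, and their median log2 fold change was -0.86. The shares were 21.5% and 11.6% over all tested genes, and 43.9% and 2.71% over those at least as long as the shortest member. With the correction 17 fell and 7 rose, and the median was -0.15. These shares of 9.71% and 4% stood against 4.39% and 4.35% of all tested genes, where the corrected median was -0.05. Among genes at least as long as the shortest member they were 7.88% and 5.15%, with a corrected median of -0.15. Transcripts of the 175 ranged from 789 to 24060 bases, so neither set was matched to them for length. In each list the 2 genes with the smallest p are named. Among other CHD remodellers 3 of 7 fell (42.9%) and 0 rose. Chd1 stood at -2.54 and Chd6 at -2.34, and with the correction Chd6 passed again (-1.21). In the BAF complex 5 of 23 tested genes fell and 4 rose, which is 21.7% and 17.4%, against 21.5% and 11.6% of all tested genes. Arid2, a DNA-binding subunit, was at -2.54 and passed again (-0.95), while Ss18 was at -1.33 and, corrected, at 0.18.

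Histone methyltransferases and COMPASS subunits had 10 of 21 lower and 1 higher, which is 47.6% and 4.76%. The shares were 21.5% and 11.6% over all tested genes, and 43.9% and 2.71% over those at least as long as the shortest member. Nsd1, an H3 lysine 36 methyltransferase of overgrowth syndromes, was at -2.87 and, corrected, at -1.33, which passed. Nsd2, a relative, had 52.4 and 44.2 CPM in Npas3-/- and 100.1 and 92.6 CPM in wild type, and its corrected value of 1.29 did not pass. Of 12 Mediator genes 8 fell (66.7%) and 0 rose, with Med14 at -2.39 and Cdk19 at -1.88. Neither passed with the correction, where 1 fell and 1 rose. Other autism-linked genes had 16 of 29 lower (55.2%) and 0 higher, and 5 lower and 0 higher with the correction. Tbl1xr1 was at -2.84 and Trip12 at -2.56. Neither of these passed with the correction.

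Of 20 genes of the TSC, mTOR and Ras pathways 9 fell and 3 rose (45% and 15%, against 21.5% and 11.6% of all tested genes). Spred2, whose product binds neurofibromin and restrains Ras, was at -1.46 and kept -1.40 with the correction, while Spred1 was at -2.17 and, corrected, at 0.15. Partners of Cul3 had 3 of 10 lower and 2 higher (30% and 20%, against 21.5% and 11.6% of all tested genes), with the adaptor gene Klhl9 at -3.05 (corrected -1.12, which passed) and Nedd8, whose product activates cullins, at 1.57 (corrected 0.67, which did not pass).

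Reelin pathway genes had 4 of 7 lower and 0 higher (57.1% lower, against 21.5% of all tested genes). Crk was at -2.76 and the reelin receptor gene Vldlr at -2.12. Crk passed again with the correction (-1.17) and Vldlr did not (-0.01). Postsynaptic scaffolds and receptors had 5 of 15 lower (33.3%) and 0 higher, and with the correction 1 lower and 2 higher (Dlg4 and Homer2). Dlgap1, a Shank-binding scaffold, was at -2.39 and Dlg1 at -1.73. Dlgap1 was the one that was lower with the correction (-1.89). Neurexin and neuroligin partners had 4 of 13 lower and 1 higher (30.8% and 7.69%, against 21.5% and 11.6% of all tested genes). Cask, a neurexin-binding scaffold, was at -2.01 and Nrxn3 at -4.44. Nrxn3 passed again (-3.27). Sodium and calcium channel genes had 6 of 18 lower and 1 higher (33.3% and 5.56%). Cacna1d was at -1.79 and Scn3a had 0 and 0 CPM in Npas3-/- against 0.225 and 0.470 CPM in wild type, and neither passed with the correction.

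Because Reln, Scn2a and Nlgn1 are also transcribed in neurons, markers of other cells were measured. Of 12 neuronal markers 8 were tested, of which 3 fell (Gad2, Map2 and Syt1) and 0 rose. The share that fell was 37.5%, against 21.5% of all tested genes. The vesicular glutamate transporter gene Slc17a6 was at 0 in all 4 libraries. Their summed level was 202 and 201 CPM in Npas3-/- replicates 1 and 2, against 312 and 171 CPM in wild-type replicates 1 and 2. Stmn2 and Tubb3, which did not pass, make up most of that sum. Tubb3 lay higher in both Npas3-/- libraries, with 65.2 and 79.6 CPM against 45.9 and 21.9 CPM in wild type. Slc17a7 also lay higher in both and Gad1 lower in both, and neither passed. Map2, a microtubule gene of dendrites, had 4.43 and 1.82 CPM in Npas3-/- and 36.4 and 45.0 CPM in wild type (log2 fold change -3.70), and fell with the correction too (-2.77, adjusted p = 0.0239). Gad2, a GABA-synthesis gene, stood at -3.28 and Syt1, a synaptic vesicle gene, at -2.44, and neither passed with the correction. Oligodendrocyte-lineage markers summed to 1804 and 2198 CPM in Npas3-/- and 1645 and 1502 CPM in wild type, with 1 of 8 lower and 1 higher. Olig1, Cnp and Olig2 make up most of these sums, and Mog was at 0 in all 4 libraries. Microglial markers summed to between 10.2 and 12.3 CPM in the 4 libraries. Endothelial and mural markers summed to 1390.1 and 1406 CPM in Npas3-/-, against 1297.5 and 327 CPM in wild-type replicates 1 and 2. Acta2 alone makes up most of these sums, with 1334 and 1359 CPM in Npas3-/- and 1243 and 270 CPM in wild type. Of 7 tested, 1 fell, Rgs5, and 0 rose (14.3% fell, against 21.5% of all tested genes). Rgs5 had 0.386 and 0.312 CPM in Npas3-/- and 3.82 and 11.5 CPM in wild type (log2 fold change -4.45). It fell with the correction too (-2.30). Meningeal fibroblast markers summed to 294 and 361 CPM in Npas3-/-, against 395 and 339 CPM in wild type, and Col1a1 and Col1a2 make up most of these sums. Of 7 tested, 2 fell and 0 rose (28.6% fell, against 21.5% of all tested genes). These were Col3a1, at -1.94, and Dcn, which was near the lower end of detection. Col3a1 fell with the correction too (-1.84) and Dcn did not pass. The part of these cells in the results for Reln, Scn2a and Nlgn1 was not tested.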

How the data were processed

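RNA of 4 astrocyte libraries was sequenced. The authors deposited 1 table of raw counts per gene. The submitters' processing notes name HISAT2 2.1.0, Trimmomatic 0.3.8 and featureCounts, with the mm10 build. Annotation, strand setting and handling of shared reads: not given in the sources used here. Groups came from the labels, columns were matched by name. Identifiers were joined without version to GENCODE M21 (53274 of 53379). The members and lists were chosen with earlier results of these data known, and in each partner list the 2 tested genes with the smallest p were named.

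The test was edgeR 4.0.16 (R 4.3.3; TMM, filterByExpr with minimum count 10, quasi-likelihood, 2 residual degrees of freedom), Benjamini-Hochberg adjusted over 18838 genes, threshold 0.05. SE is the log2 fold change over the square root of F. The correction fitted, per library, natural splines (6 degrees of freedom) of GC content and log2 length to deviations of log2 CPM (pseudocount 2) from the gene mean, and applied TMM again. Log2 ratios between replicates used a pseudocount of 0.02 CPM. Alternatives included DESeq2 1.42.0 and limma-voom 3.58.1. Precision rests on the spread of 2 libraries per genotype.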

Additional observations from a re-analysis of the deposited data

How the results depend on the processing

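Over the alternatives run for the 30 genes, 412 of 628 log2 fold changes kept their direction and their side of the threshold, 132 lost the call, 22 gained one and 62 changed direction. The 628 include the fits without Npas3-/- replicate 2 and, corrected, without Npas3-/- replicate 1 or 2, in which no gene was called. Members called in the main test could keep no call there. Counts of members that fell ranged from 12 to 20 with DESeq2's size factors in edgeR (17), without the low-count filter (15), above 5 CPM on average (17, with Reln and Scn2a removed), with DESeq2 (20), limma-voom (17), and with GC content (12, and 1 higher) or length (12, and 5 higher) corrected alone. In the first 3 of these, 21, 21 and 20 members were lower at an unadjusted p below 0.05 in edgeR. So were 27.4%, 19.6% and 33.2% of all tested genes, against 27.6% with the settings of the main test. At an adjusted p below 0.01 edgeR called 0 of all genes, 0 members, 0 chromatin or transcription regulators and 0 synaptic, channel or signalling genes (9024 genes had an unadjusted p below 0.05, and the smallest adjusted p was 0.0130). Over all tested genes 6232 changed, against 3997 without the filter and 2003 with GC content corrected. GC content corrected alone left 3 synaptic, channel or signalling genes lower, and length alone left 7 regulators. With both, 1646 genes changed and 5 members fell, 4 regulators and 1 synaptic gene. On merged exons 2353 genes changed and 7 members fell, 5 regulators and 2 others.

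The replicate numbers were not shown to pair the samples, since same-numbered deviations correlated at -0.156 (-0.083 after correction) over 18838 genes, with only 2 pairs of libraries. With the replicate block 2560 genes changed and 13 members fell. With the replicate block and the correction 606 changed and 1 member fell, 0 regulators and 1 synaptic gene. With crossed numbers, an alternative chosen after seeing the data, 7670 genes changed and 21 members fell, and with the correction 2307 and 10, of which 1 was a synaptic gene.

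Leaving out each library in turn gave 0 to 5832 genes, 0 to 17 members, 0 to 11 regulators and 0 to 6 synaptic, channel or signalling genes. With the correction it gave 0 to 1690 genes, 0 to 6 members, 0 to 5 regulators and 0 to 1 synaptic gene, with 595 genes without wild-type replicate 2. The counts of 0 came without Npas3-/- replicate 2 (5728 genes at an unadjusted p below 0.05) and, corrected, without Npas3-/- replicate 1 or 2 (4460 and 3672).

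Directions changed as follows, on the log2 scale, and the cause was not tested. With GC content corrected alone Tcf4 stood at 0.11, Tsc2 at -0.26, Nrxn2 at -0.45, Nlgn2 at -0.35, Nlgn3 at 0.16 and Cntnap2 at 1.28. With length alone Arid1b stood at 0.46, Pogz at 0.14, Ankrd11 at 0.14, Tsc1 at 0.35, Shank2 at 0.50, Shank3 at 0.31, Cacna1c at 0.56, Nlgn3 at 0.995 and Cntnap2 at 1.06. With both Foxp1 stood at 0.30, Tcf4 at 0.57, Cacna1c at 0.029, Nlgn3 at 0.78 and Cntnap2 at 1.87. With the replicate block as well, same-numbered or crossed, they stood at 0.29, 0.59, 0.033 (crossed 0.034), 0.77 and 1.86. On merged exons Chd2 stood at 0.093, Pogz at 0.18, Setd5 at 0.53, Tcf4 at 0.24, Tsc2 at -0.010, Nlgn2 at -0.18, Nlgn3 at 0.24 and Cntnap2 at 1.33. With the correction and 1 library left out, Pogz ranged from -0.23 to 0.19 (0.083 without Npas3-/- replicate 2), Foxp1 from 0.10 to 0.43 (0.32 and 0.23 without wild-type replicates 1 and 2), Tcf4 from 0.31 to 0.85 (0.40 and 0.62 without Npas3-/- replicates 1 and 2), Cul3 from -0.18 to 0.060 (0.027 without Npas3-/- replicate 2), Cacna1c from -0.12 to 0.19, Nlgn1 from -0.31 to 0.038, Nlgn3 from 0.66 to 0.88 (0.80 and 0.74 without wild-type replicates 1 and 2), and Cntnap2 from 1.55 to 2.08 (2.07 and 1.65 without wild-type replicates 1 and 2). Without the correction Nlgn3 ranged from -0.17 to 0.078. With 2 libraries a genotype, a lone library was assumed to vary like the other genotype.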
